A study of Rattus norvegicus with 7 samples.

Results

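Neurotrophic factors are secreted proteins that keep neurons alive and guide the growth of their processes, and 8 genes of this system were followed in stretched cultures of rat spinal cord. The ligands were Bdnf, Ntf3 (neurotrophin 3) and Gdnf. The receptors were Ntrk2 (TrkB), Ntrk3 (TrkC), Ngfr (p75), Ret and Gfra1. A probe set, a group of short oligonucleotides that reads one transcript or a few, was taken when the platform annotation gave it exactly 1 of these symbols. This rule used no measured value and found the 8 genes, of 14217 named on the array, with 16 of the 31042 probe sets that are not controls. They were 5 for Ntrk2, 3 for Ret, 2 each for Bdnf and Gfra1, and 1 each for Ntf3, Gdnf, Ntrk3 and Ngfr.

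The study asked how gene expression in spinal cord cells changes while the cells are stretched. Cells were taken from the spinal cord of embryonic day 15 fetuses (Sprague-Dawley rats), without the sensory ganglia and the covering membranes, and were grown for 3 days on flexible wells coated with type IV collagen. They were then stretched cyclically (cyclic tensile stress) by 10% at 0.5 Hz for 2, 6, 12 and 24 hours, or for 48 or 72 hours, and the 0 hour culture received no stress. RNA of 5 animals was pooled at each time and read on 1 Rat Genome 230 2.0 array, an Affymetrix chip, so that 7 arrays were available and no time had a replicate. All groups were of the same strain, with no genetic change named in the labels. No unstretched culture of a later time was analysed here, so hours of stress and hours in culture cannot be told apart. The pooled RNA is that of a mixed culture, and fewer cells of a type and less RNA per cell cannot be told apart.

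Values of a probe set are given below in the order of the 7 arrays, from 0 to 72 hours. Each signal intensity is the value that the array software gave, scaled to the same trimmed mean of about 500 on every array. Medians over all probe sets were 145 to 162, and 42.5% to 44.3% of probe sets were below 100 on an array. The ratio of the 3' to the 5' control probe set of beta-actin, a measure of RNA integrity, ran from a lowest value of 1.53 on the 2 hour array to 2.62 on the 72 hour array. Genes of neurons were present at 0 hours, when 3 of 22 measured neuronal markers were below 100. Of 13 measured genes of the motor neuron list, 8 had a mean below 100, among them the defining markers Chat, Slc18a3 and Isl1 at 6.76, 25.6 and 37.7 at 0 hours, while Aldh1a2 and Foxp1, which other cells also make, were at 1364 and 979. Astrocyte genes were present on every array, with Gfap between 5960 and 10641.

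BDNF binds TrkB and neurotrophin 3 binds TrkC, and the bound receptors phosphorylate themselves and switch on the MAP kinase, PI3 kinase and phospholipase C gamma routes. p75 binds all neurotrophins with low affinity, binds their unprocessed precursors together with sortilin, and can relay either survival or death. GDNF first binds GFRα1, a protein without a kinase that is held to the membrane by a lipid anchor, and the pair then engages the kinase RET. In the spinal cord TrkB exists as a form with the kinase, found largely in neurons, and as truncated forms without it, found largely in astrocytes. Motor neurons respond to BDNF, neurotrophin 3 and GDNF, while p75 is also made by Schwann cells and their precursors.

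Bdnf is known as a gene with several promoters that is switched on by calcium through CREB, a factor that binds the sequence TGACGT or the longer site that contains it. The RefSeq windows from 250 bases before to 50 bases after an annotated start numbered 12 for 5 of the 8 genes (GRCr8 build), with 6 for Bdnf. Some windows of Bdnf overlapped each other, as did some of Ntf3, so that the 12 are not separate stretches. The letters TGACGT, searched on both strands, stood in 2 of the 12, once in Bdnf and once in Gdnf, against 7.94% of all 33469 windows. Both are shown because they are the windows of the set with a match. The Bdnf stretch is chr3:116637775-116637874 and the Gdnf stretch chr2:58621230-58621329, both printed as the plus strand, with the match 36 and 50 bases before the start. The printed strand reads ACGTCA, in capitals, and the opposite strand TGACGT.
Bdnf: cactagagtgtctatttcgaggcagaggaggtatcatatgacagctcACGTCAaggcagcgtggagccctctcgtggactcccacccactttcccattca
Gdnf: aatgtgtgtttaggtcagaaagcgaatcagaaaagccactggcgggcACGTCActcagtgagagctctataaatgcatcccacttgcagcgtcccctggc
The match is a description of letters, and the arrays do not read which Bdnf start was used.

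Of the 16 probe sets, 10 had a mean of 100 or more over the arrays and were tested for a linear change with hours (limma with Benjamini-Hochberg adjustment over 17709 probe sets). Of these 10, 1 rose and 3 fell, and 6 did not pass. Over all tested probe sets 15.0% rose and 14.1% fell. Bdnf rose, and Ret and both Gfra1 probe sets fell. The median log2 change between 0 and 72 hours was 0.07 over the 10 and -0.00 over all tested. A second rule, of size only and with no test, called a probe set when its signal was at least 2 times or at most 0.5 times that at 0 hours with a difference of at least 200. By this rule 0 of the 16 were higher at 72 hours, against 2.60% of all probe sets, and 3 were lower, against 3.54%. The same 3 were the ones called at 1 or more times, against 7.93% of all probe sets. They read Ret, Ntrk2 and Gfra1, all receptors. Every ligand probe set had a 0 hour signal below 200, so that this rule could not call a ligand lower.

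**Figure D1:**
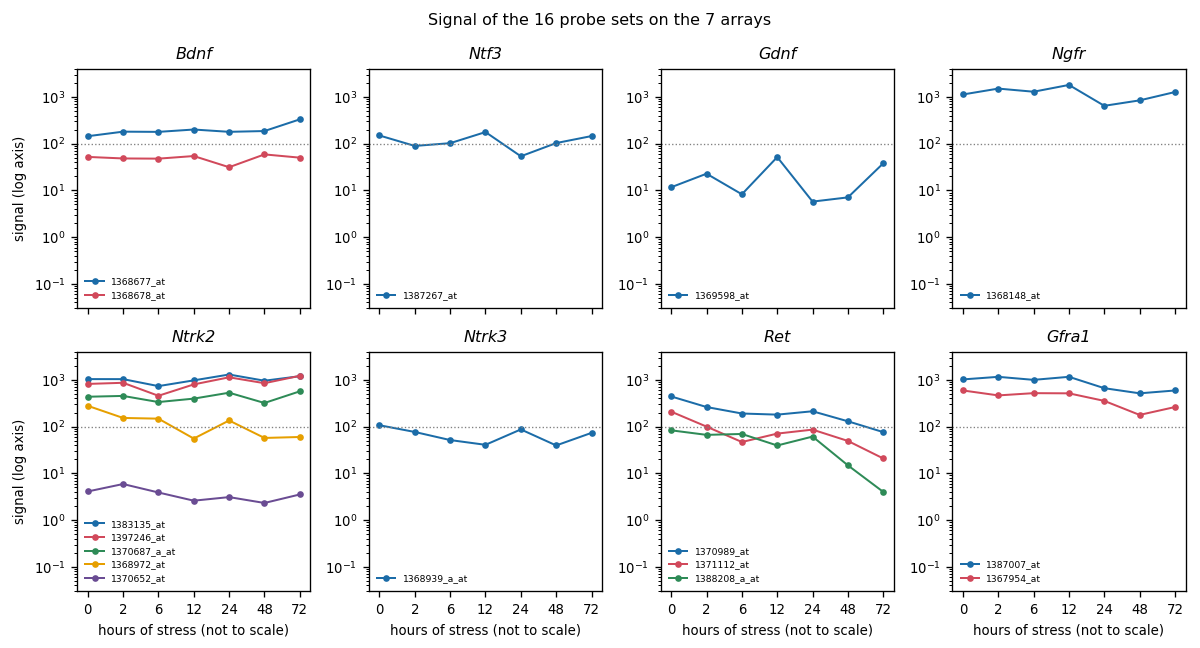
Signal intensity (log axis) of the 16 probe sets against hours of cyclic tensile stress on the 7 arrays, 1 array per time, with 1 panel per gene, 1 line per probe set and a dotted line at 100. Ntrk2 1368972_at goes from 279 at 0 hours to 60.0 at 72 hours, while Ntrk2 1397246_at goes from 820 to 1222.

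Bdnf was read by 1368677_at at 144, 181, 179, 201, 179, 186 and 331 from 0 to 72 hours. The signal was nearly level from 2 to 48 hours and stood highest on the 72 hour array, with the lowest value at 0 hours. It rose by 0.71 on the log2 scale over 72 hours (SE 0.23, 95% interval 0.20 to 1.22, limma adjusted p = 0.0410). At 72 hours it was 2.29 times the 0 hour signal, with a difference of 187 that lay just below the minimum of 200. Without the last array the change was 0.22 (limma adjusted p = 0.703). The call was also lost without the array of 0, 2, 6 or 24 hours, with limma adjusted p-values of 0.0696, 0.0644, 0.0542 and 0.0576. The second Bdnf probe set, 1368678_at, read 52.1, 48.3, 47.8, 54.4, 31.4, 58.9 and 50.2, below 100 on every array and not tested. The difference between the 2 in change with hours was 0.66 on the log2 scale over 72 hours (exact permutation test over the 5040 orders of the arrays, two-sided p = 0.0736, adjusted p = 0.209 over 15 pairs). With single arrays left out this difference ran from 0.14 without the 72 hour array (exact permutation p = 0.699, adjusted p = 0.749) to 0.91 without that of 48 hours (exact permutation p = 0.00278, adjusted p = 0.0417). At the low signals of 1368678_at no change of its own could be read.

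Ntf3, the ligand of TrkC, had signals of 150, 89.4, 102.5, 177, 53.7, 103 and 145, highest at 12 hours and lowest at 24 hours. The 72 hour signal was close to that at 0 hours, and the change with hours was 0.08 (SE 0.41, 95% interval -0.84 to 1.0, limma adjusted p = 0.905). Gdnf, the ligand of the Ret complex, read 11.7, 22.8, 8.26, 51.6, 5.76, 7.09 and 38.0, and was below 100 on every array. At such signals no order of the times could be read.

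Ntrk2, the receptor of BDNF, had 5 probe sets that did not follow one course. The probe set 1368972_at read 279, 153, 148, 55.5, 135, 57.2 and 60.0, highest at 0 hours and lowest at 12 hours. It was past the size rule at 12, 48 and 72 hours, with ratios of 0.199 at 12 hours and 0.215 at 72 hours. Its fitted change was -1.30 over 72 hours (SE 0.46, 95% interval -2.33 to -0.27), with a limma adjusted p of 0.0582 that missed the threshold. Without the 12 hour array the change was -1.51 and passed (limma adjusted p = 0.0101).

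The 3 other Ntrk2 probe sets that were tested were not lower at 72 hours. 1397246_at read 820, 867, 457, 800, 1135, 849 and 1222, and 1383135_at read 1039, 1038, 736, 977, 1303, 960 and 1198. 1370687_a_at read 436, 454, 336, 397, 532, 321 and 569. On these probe sets the 24 hour signal was above that at 0 hours and the 6 hour signal below it. Their changes over 72 hours were 0.67 (SE 0.32, limma adjusted p = 0.140), 0.27 (SE 0.23, limma adjusted p = 0.399) and 0.23 (SE 0.27, limma adjusted p = 0.557), none past the threshold. The intervals of these changes ran from -0.04 to 1.39, from -0.23 to 0.77 and from -0.37 to 0.83. The fifth, 1370652_at, lay between 2.32 and 5.91 on all arrays. RefSeq lists 14 transcripts of Ntrk2, and the files do not say which of them each probe set reads.

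The difference in change with hours was tested for each of the 10 pairs of Ntrk2 probe sets. 1397246_at, 1383135_at and 1370687_a_at differed from 1368972_at by 1.97, 1.57 and 1.53 on the log2 scale over 72 hours, with exact permutation p-values of 0.0270, 0.0353 and 0.0375. After adjustment over the 15 pairs of all member genes each was 0.188, so that no pair passed. Without the 12 hour array 4 Ntrk2 pairs passed (exact permutation, adjusted p = 0.0313), and all 4 contained 1368972_at. In 1 of these 4 the partner was 1370652_at, for which no change could be read at signals of 2.32 to 5.91, so that 3 compared measured courses. The pair 1383135_at and 1397246_at differed by -0.40 (exact permutation p = 0.0583, adjusted p = 0.209).

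**Figure D2:**
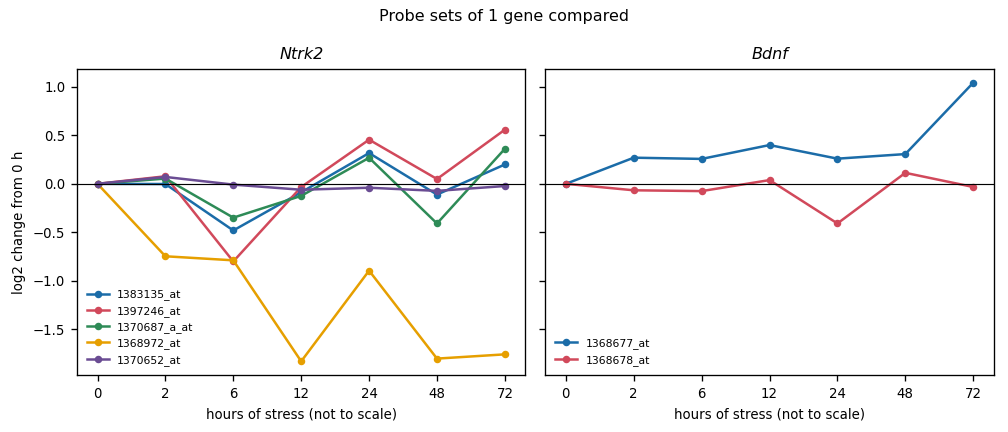
Log2 change of signal from 0 hours against hours for the probe sets of Ntrk2 and Bdnf, 1 point per array and 1 line per probe set. Ntrk2 1368972_at lies below 0 at all 6 later times, and Bdnf 1368677_at above 0.

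Markers of cell types moved on the same arrays. The 22 measured neuronal genes had median log2 changes of -0.66, -0.87, -1.54, -0.97, -1.51 and -1.43 on the 6 later arrays. By the size rule 14 of them were lower at 72 hours, against 3.54% of all probe sets. Of 18 tested by limma 4 fell, against 14.1% of all tested probe sets. The 4 became 11 when the 12 hour array was left out and 1 when that of 48 hours was. Among them Gap43, of growing axons, had a ratio of 0.173, and Tubb3, the neuronal tubulin, one of 0.214. Other genes of the list changed less, with Gad1 at 0.983 and Nefm at 0.818 at 72 hours, neither past the size rule. The summed signal of the neuronal list was 27118 at 0 hours, 8895 on the 12 hour array and 9584 on the last. The 16 astrocyte and radial glial genes had medians of -0.04, -0.54, -0.04, 0.13, -0.16 and -0.22 on the same arrays, with summed signals between 73224 and 95591. At 0 hours Vim and Gja1 gave 22170 and 15869 of the astrocyte sum of 85676. By the size rule 2 genes of this list were lower at 72 hours and 0 higher. The 2 were Gjb6 and Ntsr2, with ratios of 0.174 and 0.186. Of the 15 tested genes of this list 0 rose and 3 fell by limma. Genes of skeletal muscle were also lower, with medians of -1.23, -0.80, -1.20, -1.40, -0.86 and -1.52 over 20 measured genes, 13 of them past the size rule at 72 hours. The part of any of these cell types in the Ntrk2 signals was not tested.

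The distance of each probe set from these medians was taken as the root mean square over the 6 later arrays, on the log2 scale. Of 17 lists the neuronal one was nearest to Ntrk2 1368972_at, at 0.222, followed by skeletal muscle at 0.552 and the cell cycle at 0.634, and the astrocyte median was at 1.28. For 1383135_at it was 1.22 to the neuronal and 0.193 to the astrocyte median, for 1397246_at 1.37 and 0.375, and for 1370687_a_at 1.21 and 0.281. Nearness to the astrocyte median was not particular to it, since these probe sets lay at 0.214, 0.385 and 0.274 from the median of the p75 relay list, and 1370687_a_at was nearest to that of motor neurons, at 0.235. The lists share the arrays with the probe sets, and the distances are descriptions without a test. Among 14000 probe sets of other named genes, those nearest to 1368972_at in the same measure were Slc1a1, a neuronal glutamate transporter, at 0.118, Ptpn5, the striatum-enriched tyrosine phosphatase, at 0.132, and Rcan2, a calcineurin regulator, at 0.159.

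**Figure D3:**
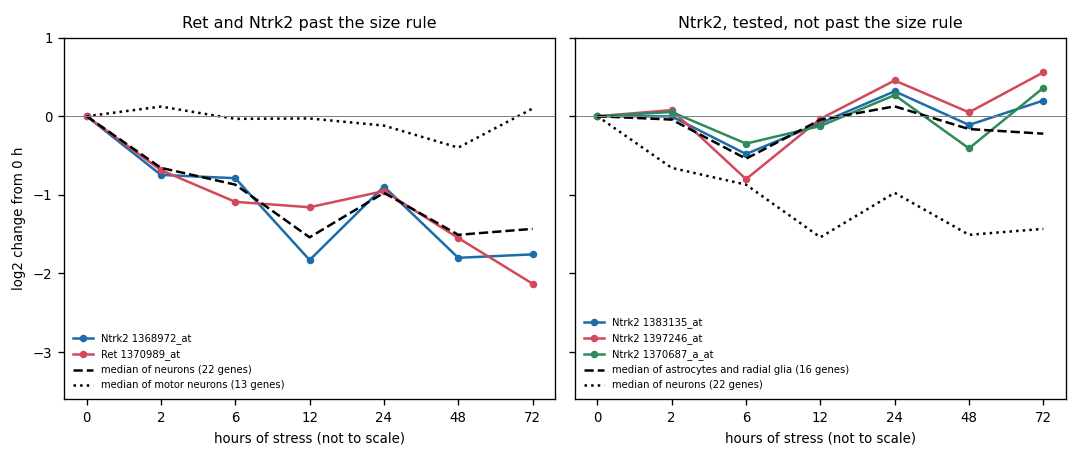
Log2 change from 0 hours against hours: medians of marker lists of cell types beside single probe sets of the neurotrophic receptors, 1 array per time. The neuronal median is -1.54 at 12 hours and -1.43 at 72 hours, and that of astrocytes and radial glia is -0.04 and -0.22.

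Ntrk3, the receptor of neurotrophin 3, was read by 1 probe set at 107, 76.8, 51.6, 40.8, 87.1, 39.6 and 73.5. All 6 later signals were below that at 0 hours, but its mean signal was under 100 and it was not tested.

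Ngfr, the p75 receptor, read 1129, 1509, 1293, 1806, 646, 844 and 1273. Its signal was highest at 12 hours, at a ratio of 1.60 to 0 hours, and lowest at 24 hours, at 0.572, and at 72 hours it was 1.13. None of these ratios passed the size rule, and the line over hours had a change of -0.36 (SE 0.41, 95% interval -1.26 to 0.55, limma adjusted p = 0.543). With single arrays left out the change ran from -1.28 without the 72 hour array to -0.18 without that of 48 hours, and none passed. Between the 12 and 24 hour arrays the ratio was 0.358, the only step between neighbouring times at which one of the 16 probe sets passed the size rule. Over all probe sets 18 were lower by that rule from 12 to 24 hours, 0.0580% of 31042. This baseline was chosen after the values were seen, and 2 of the 18 read Slc18a2, the vesicular monoamine transporter. Ntf3 had a ratio of 0.303 over the same step, with a difference below 200. With 1 array per time, the step has no replicate check. The 10 measured Schwann cell and neural crest genes had medians of -0.02 on the 12 hour array and -0.35 on the next, and the part of such cells was not tested.

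Ret, the kinase of the GDNF receptor, was lower at all 6 later times on each of its 3 probe sets. 1370989_at read 442, 263, 191, 181, 213, 130.0 and 76.3, and was past the size rule from 6 hours on. Its signal at 72 hours was 0.172 of that at 0 hours. It fell by 1.56 on the log2 scale over 72 hours (SE 0.32, 95% interval -2.26 to -0.85, limma adjusted p = 0.00587). Without the 72 hour array the change was -1.55 and missed the threshold (limma adjusted p = 0.0847). The beta-actin 3' to 5' ratio was highest on that array, and its part in the Ret signal was not tested.

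The remaining Ret probe sets had a mean below 100 and were not tested among the 17709. In a fit to all probe sets, with no filter, their changes over 72 hours were -1.38 for 1371112_at (limma adjusted p = 0.0623) and -1.60 for 1388208_a_at (limma adjusted p = 0.00544). 1371112_at read 209, 100.1, 46.8, 70.9, 86.3, 49.4 and 20.8, and its difference of -188 at 72 hours fell short of the 200 that the size rule required. 1388208_a_at read 83.3, 66.6, 69.6, 39.5, 61.2, 14.8 and 4.01, below 100 on every array, so that low signal limits its change. Both were lowest at 72 hours, as 1370989_at was. The 3 pairs of Ret probe sets did not pass for a difference in change, with exact permutation p-values of 0.425 to 0.909. These values depended on the pseudocount, the constant added to each signal before the logarithm. With pseudocount 1, 1370989_at and 1388208_a_at differed by 1.955 (exact permutation p = 0.0177, adjusted p = 0.145). With pseudocount 100, 1370989_at and 1371112_at differed by -0.336 (exact permutation p = 0.0107, adjusted p = 0.1205). The other Ret pairs at these pseudocounts had exact permutation p-values of 0.0772 to 0.858, and no Ret pair passed after adjustment.

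Gfra1, the co-receptor that binds GDNF, fell on both probe sets. 1387007_at read 1023, 1162, 1001, 1163, 664, 516 and 593, and 1367954_at read 594, 465, 520.2, 516, 355, 178 and 263. On both, the 24, 48 and 72 hour signals were below the 4 earlier ones, and the lowest was at 48 hours. The changes over 72 hours were -1.07 (SE 0.24, 95% interval -1.60 to -0.55, limma adjusted p = 0.00839) and -1.30 (SE 0.29, 95% interval -1.93 to -0.66, limma adjusted p = 0.00837). Without the 72 hour array, where both signals were above those at 48 hours, the changes were -1.69 and -2.21. 1367954_at passed the size rule at 48 and 72 hours, with ratios of 0.300 and 0.442. 1387007_at had a ratio of 0.504 at 48 hours, just outside it, and 0.580 at 72 hours. The pair differed by 0.23 in change with hours (exact permutation p = 0.403, adjusted p = 0.531).

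The distance of Ret 1370989_at was 0.338 to the neuronal median, 0.438 to that of the cell cycle and 0.489 to that of skeletal muscle. Gfra1 1387007_at was at 0.938 from the neuronal and 0.684 from the cell cycle median and nearest to that of fibroblasts and meningeal cells, at 0.367. Gfra1 1367954_at was at 0.658 from the neuronal median and nearest to that of the cell cycle, at 0.425. The nearest probe sets to Ret were Evl, an actin regulator, at 0.128, Car10 at 0.139 and Cap2, an actin-binding protein, at 0.140. For Gfra1 1367954_at they were Tlcd3a at 0.130, Zfp395 at 0.160 and Pkdcc at 0.194. The 15 measured genes of the cell cycle all fell, with medians of -0.47 on the 12 hour array and -2.03 on the last, and their relation to Gfra1 was not tested.

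**Figure D4:**
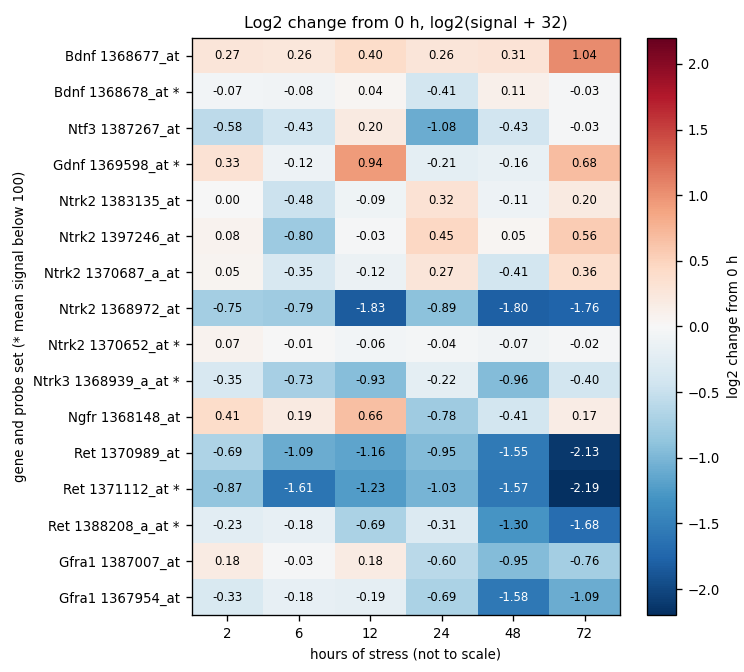
Log2 change from 0 hours of each of the 16 probe sets (rows) at each later time (columns), from log2(signal + 32), with the value printed in each cell. All 3 Ret probe sets are negative at all 6 times, and both Gfra1 probe sets are negative from 24 hours on.

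**Figure D5:**
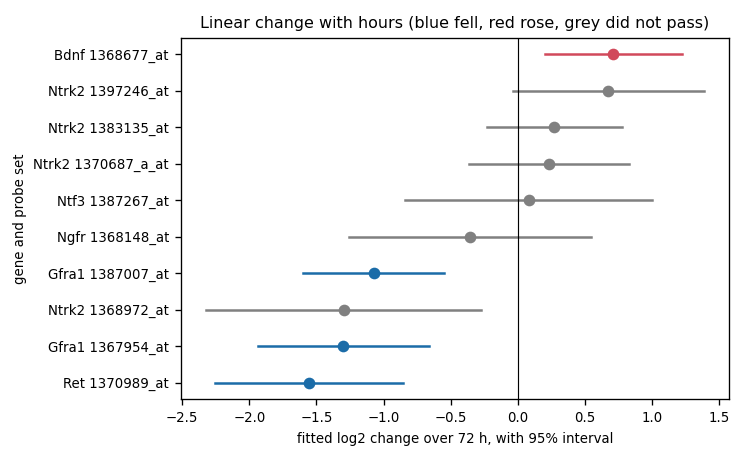
Fitted log2 change over 72 hours with its 95% interval for the 10 tested probe sets, from limma on 7 arrays. Bdnf 1368677_at has an interval of 0.20 to 1.22, and the intervals of Ret 1370989_at and both Gfra1 probe sets lie below 0.

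The other neurotrophic ligands were measured with 13 genes, of which 7 were tested, 1 rose and 2 fell. For this list and those that follow, the shares over all tested probe sets were 15.0% risen and 14.1% fallen. Vegfa, the vascular growth factor, had signals of 774, 526, 933, 775, 883, 1498 and 1725 and rose, to a ratio of 2.23 at 72 hours (limma adjusted p = 0.00244). Ptn, pleiotrophin, had signals of 5981, 5884, 3834, 4774, 4152, 2948 and 2332 and fell, to a ratio of 0.390 (limma adjusted p = 0.00144). Manf, made under stress of the endoplasmic reticulum, fell to 0.702 (limma adjusted p = 0.0282). Mdk, midkine, had a ratio of 0.638 and did not pass (limma adjusted p = 0.0689). Igf1 was at 0.895 and Cntf at 1.51 of their 0 hour signals, and neither passed (limma adjusted p = 0.829 and 0.134). Clcf1 and Fgf2 had means below 100 and were not tested, with signals of 29.7 and 48.7 at 0 hours and 174 and 145 at 72 hours. The median log2 change of the 13 at 72 hours was 0.00.

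Of the other receptors 15 genes were measured and 8 tested, and 1 rose and 2 fell. Gfra2, the co-receptor of neurturin, fell from 233 to 74.1, a ratio of 0.317 (limma adjusted p = 0.0122), and Sorcs2, a partner of p75, fell to 0.658 (limma adjusted p = 0.0371). Il6st, the shared receptor chain of the CNTF family, rose to 1.60 (limma adjusted p = 0.0298). Ncam1, an adhesion molecule that also binds GDNF, had a ratio of 0.420 and did not pass (limma adjusted p = 0.0936). Sort1, sortilin, was at 1.05, with a fitted change of -0.07 that did not pass (limma adjusted p = 0.766). The median of the 15 at 72 hours was -0.36. Without the last array 0 of these receptors rose and 0 fell.

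Neurotrophins are cut from precursors by furin and related proteases inside the cell, and by plasmin and matrix metalloproteinases outside it. Of 15 measured genes of this processing 11 were tested, of which 2 rose and 1 fell. Leaving out the 0 hour array gave 3 risen and 2 fallen genes, and leaving out the last gave 1 of each. Furin had signals of 1023, 1191, 1226, 1389, 1203, 1934 and 2073 and rose, to a ratio of 2.03 (limma adjusted p = 0.00278). Mmp3 rose from 179 to 1458, a ratio of 8.13 (limma adjusted p = 0.0106). Mmp9 had signals of 11300, 12464, 16244, 7719, 8581, 4827 and 1088 and fell, to a ratio of 0.0963 (limma adjusted p = 0.000488). Microglial and macrophage genes moved on the same arrays, with 1 of 15 tested genes risen and 9 fallen (6 fallen without the last array). Their medians on the 6 later arrays were 0.22, 0.31, 0.06, 0.23, -0.02 and -0.59, and their part in the Mmp9 signal was not tested.

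Genes that relay or regulate the signal of Trk and Ret receptors numbered 33 measured and 31 tested. Of these 31, 5 rose and 3 fell, against 15.0% and 14.1% of all tested probe sets. None of the 33 passed the size rule at 72 hours, and their median was 0.09. The 5 that rose were Gab1, Plcg1, Pik3ca, Nedd4l and Cbl, and the 3 that fell were Map2k2, Rap1a and Dok5, an adaptor of Ret. They were named after their values were seen, and without the last array 2 rose and 1 fell. Plcg1, the phospholipase that Trk receptors recruit, read 1446, 1378, 1561, 1437, 2079, 2354 and 2669, a ratio of 1.85 (limma adjusted p = 0.00161). Dok5 had a ratio of 0.512 (limma adjusted p = 0.0186). Of the p75 relay 19 genes were measured and 18 tested, with 5 risen and 2 fallen, or 1 and 0 without the last array. Ripk2, a kinase recruited by p75, rose to 2.38 (limma adjusted p = 0.00231), and Mapk8, the JNK1 kinase, fell to 0.431 (limma adjusted p = 0.00741). Lingo1, a partner of p75 in neurons, and Bex1, a p75 interactor, had ratios of 0.368 and 0.444 and did not pass (limma adjusted p = 0.351 and 0.292).

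Genes known to be induced by BDNF or CREB were measured with 23 genes, of which 20 were tested, 5 rose and 4 fell, or 2 and 3 without the last array and 8 and 4 without that of 6 hours. By the size rule 6 were higher and 6 lower at 72 hours, against 2.60% and 3.54% of all probe sets. Nr4a2, a nuclear receptor, read 213, 238, 499.7, 303, 378, 758 and 917 and rose, to a ratio of 4.31 (limma adjusted p = 0.00298). Fosl1, an AP-1 subunit, rose to 6.46 (limma adjusted p = 0.00148), and Dusp1, a phosphatase of MAP kinases, to 4.16 (limma adjusted p = 0.00158). Sst, somatostatin, which is made by neurons, fell to 0.196 (limma adjusted p = 0.00989). The median of the 23 was 0.61 at 6 hours and 0.27 at 72 hours. Bdnf itself, at 179 at 6 hours, had its highest signal at 72 hours.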

How the data were processed

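Affymetrix Rat Genome 230 2.0 arrays (31099 probe sets, 57 of them controls) were hybridized with pooled RNA, 1 array per time. The deposited signal intensity was made by the authors with the MAS5 method in GCOS and scaled to a trimmed mean of 500; the version of GCOS was not given in the sources used here. Depth does not apply, and the number of arrays limits the precision. Gene symbols came from the platform annotation, in which 20826 probe sets had exactly 1 symbol, 436 had several, and the rest none. Symbols of the 8 genes were checked against RefSeq (GRCr8), and 0 had changed.

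Signals were analysed as log2(signal + 32), so that changes of low signals are understated. A line over hours was fitted with limma 3.58.1 in R 4.3.3, moderated by an intensity trend and with 5 residual degrees of freedom, on 17709 probe sets with a mean of at least 100, with Benjamini-Hochberg adjusted p under 0.05. The same step was tested on simulated data. Its p-values measure scatter about a line, not between replicates. The size rule is that of the study's methods. Pairs of probe sets of 1 gene were compared by an exact permutation test of the slope of their difference, two-sided, over 5040 orders of the arrays (smallest p 0.0003968), with scipy 1.17.1. With an array left out, only the orders of the remaining arrays were used, so that the orders were fewer and the smallest p larger. Lists were counted with 1 probe set per gene, that of the highest mean signal. All probe sets of the 8 genes are named, up to 4 genes per list past the size rule at 72 hours, any other ligand or receptor, and the 3 nearest probe sets of each member past the size rule. Other list members were named after their values were seen. Members, lists and motif were chosen with earlier results of these data known. Alternatives were another pseudocount, no filter, quantile scaling, a common median, rank or logarithm of time, other limits of the size rule, and each array left out. Strain, frequency and culture time are from the study's methods.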

Additional observations from a re-analysis of the deposited data

How the results depend on the processing

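Of 148 changes of single probe sets recomputed under other settings, 128 kept their direction and side of the threshold, 10 no longer passed, 5 newly passed and 5 turned direction. The 1 rise, that of Bdnf, was the least stable: the count was 0 with no filter on mean signal, with a common median, and with the rank or the logarithm of hours, and 0 to 1 with single arrays left out (1 without that of 12 or 48 hours). Falls numbered 2 to 4 over these settings, in place of 3, and both Gfra1 probe sets passed in each. By the size rule at 72 hours, 1 probe set was higher with a difference of at least 100 and 2 were higher and 5 lower with no minimum difference, in place of 0 and 3; over all 31042 probe sets these limits gave 1266 higher, and 4595 higher and 4239 lower. Pairs past the adjusted threshold numbered 0 to 1 for Bdnf (1 without the 48 hour array) and 0 to 4 for Ntrk2 (4 without the 12 hour array). Ntf3 turned to -0.10 with the rank and -0.16 with the logarithm of hours, and ranged from -0.53 to 0.27 with single arrays left out, while Ntrk2 1370687_a_at ranged from -0.35 to 0.48. Ntrk2 1368972_at passed with quantile scaling (limma adjusted p = 0.0486), a common median (0.0435), the rank (0.016) and the logarithm of hours (0.0154). The causes of these shifts were not tested. No paired analysis was possible because each time had 1 array. Low signals limit Gdnf, Ntrk3, Ntrk2 1370652_at and Bdnf 1368678_at, for which no change could be read. Ret 1388208_a_at was also below 100 on every array, and its fall carries the same limit.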
